A study of Homo sapiens with 21 samples.

Results

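Wild-type EWS/FLI put back into Ewing sarcoma cells after knockdown was set against control RNAi, to describe what the rescue returned to the control level and what it left away from it. The cells were A673, a human Ewing sarcoma line whose driver is a fusion of EWSR1 with the ETS factor FLI1. The 5 wild-type rescue libraries (wtEF, replicates 1 to 5) came from cells with RNAi against EWS/FLI and a vector for full length type IV wt EWS/FLI. The 4 control libraries (iLuc, replicates 1, 2, 3 and 5) came from cells with RNAi against luciferase and the empty pMSCV-hygro vector. All 9 libraries are thus from 1 line that carries an RNAi construct and a rescue-vector backbone, and both constructs were delivered by infection, the rescue vector after 4 days of selection. They are 9 of the 21 libraries of the series, and every gene that reached 10 on the linear scale in at least 3 libraries was tested, 18040 of the 57820 in the deposited table. The 5 knockdown libraries (iEF, EWS/FLI RNAi with the empty vector) are given beside them for scale; the remaining 7 libraries carry mutant fusions and entered the fit only. Replicate numbers stand for the batches named in the labels. The labels do not say that replicates were separate cultures, so p-values measure the spread between these libraries, which may be technical.

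EWS/FLI binds DNA through the ETS domain of FLI1, whose core motif is GGAA, and in Ewing cells it turns long GGAA repeats into enhancers. Genes near such repeats depend on the fusion for their expression, whereas mesenchymal, matrix and adhesion genes are held down by it. RNAi followed by re-expression of a cDNA is the usual test of whether a change after knockdown is due to loss of the fusion.

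The values are the authors' normalized log2 values, and a difference is wild-type rescue minus control from a limma fit with the replicate number as a block. It is given as log2 with its standard error. A gene was called when its adjusted p (limma, Benjamini-Hochberg over all genes tested) was below 0.05. On the first principal component of the genes tested, which held 71.3% of the variance, wild-type rescue replicates 1 to 5 scored -60.6, -62.8, -30.5, -62.6 and -32.5, the control libraries scored between -104 and -90.9, and the knockdown libraries between 73.3 and 91.6. Replicates 3 and 5 of the wild-type rescue therefore stood nearer the knockdown than the other 3, and list counts that move by over 1.5 times without both are given both ways. Ewing markers NKX2-2 and NR0B1 were present in all 9 libraries. Of 18 epithelial markers 10 reached the level needed for testing, while CDH1 and EPCAM did not.

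The fusion's own genes came first. FLI1 stood at 10.69, 10.46, 10.35, 10.46 and 10.42 in wild-type rescue replicates 1 to 5, against 11.69, 11.61, 11.56 and 11.68 in control replicates 1, 2, 3 and 5. The groups did not overlap, and the knockdown libraries averaged 9.77 ± 0.16 (SD, n = 5). The difference of group means was -1.16 (exact permutation test over libraries, 2-sided p = 0.0159, the smallest 9 libraries in groups of 5 and 4 can give, and 0.0159 adjusted over the 2 genes tested in this way). EWSR1, whose reads also come from the intact EWSR1 gene, stood at 14.04, 14.00, 13.93, 13.95 and 13.67 in the wild-type rescue and 14.22, 14.14, 14.11 and 14.23 in control, a difference of -0.26 ± 0.07 (adjusted p = 0.0102, exact permutation p = 0.0159), a limma call lost without rescue replicates 3 and 5 (-0.15, adjusted p = 0.0601). Thus FLI1 signal in the rescue lay 2.22-fold below control and 0.70 (log2) above the knockdown. Reads from the native fusion and from the introduced cDNA, which need not share their untranslated ends, are not separated in these values.

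Of the 18040 genes tested, 8131 (45.1%) were called, 4351 higher (24.1%) and 3780 lower (21%) in the wild-type rescue. The counts of list members given below are to be read beside these shares. Most of these differences were small. Called genes that also differed at least 2-fold numbered 1523 (8.44%), of which 1177 were higher (6.52%) and 346 lower (1.92%). The 95% interval of the difference lay within 2-fold of control for 14638 genes (81.1%), and the median difference over all genes was 0.03. Groups of values did not overlap for 5625 genes (31.2%), 2966 of them higher (16.4%) and 2659 lower (14.7%), and the difference had 1 direction in all 4 shared batches for 9836 genes (54.5%). The split depended on the scaling: calls were 53.5% higher as deposited, 43.1% after quantile scaling and 36.5% after trimmed-mean scaling, which moved the median of all genes to -0.08. Among the called genes with at least a 2-fold difference, higher ones outnumbered lower ones under each scaling, with 946 against 502 after quantile and 988 against 481 after trimmed-mean scaling. Within batches 1, 2, 3 and 5, differences of at least 2-fold were 1293, 968, 1510 and 1868 higher, and 372, 565, 423 and 658 lower. Without wild-type rescue replicates 3 and 5, 5951 genes were called, 904 higher and 337 lower by at least 2-fold.

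**Figure D1:**
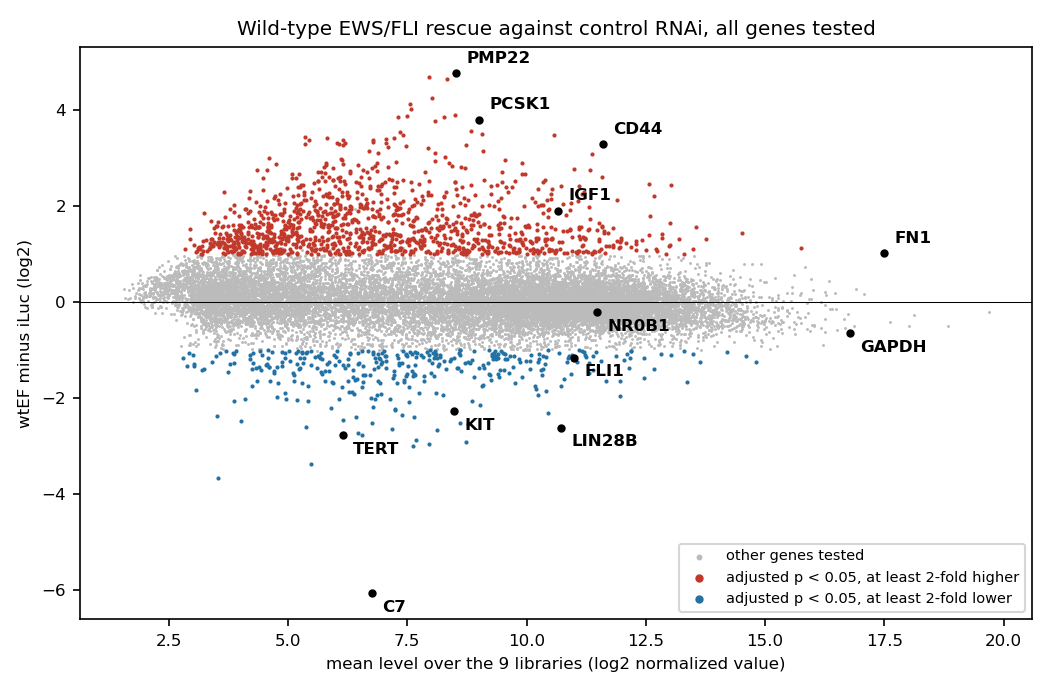
Log2 difference (wild-type rescue minus control) of each of the 18040 genes tested against its mean log2 value over the 9 libraries. Red points are the 1177 called genes at least 2-fold higher, blue points the 346 at least 2-fold lower, and the black points mark genes described in the text.

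The promoters of 4 genes are shown here. By a naming rule given below, PMP22 was the largest rise (4.78) and C7 the largest fall (-6.06). NR0B1 was a fusion target back near control (-0.20). PCSK1 was picked for its letters, as the 1 gene with a tandem core motif among the 9 of the 12 largest rises that had a promoter. Sequences are RefSeq promoters of GRCh38.p14, 300 bases around each start, most of them before it, 5′ to 3′ on the gene's strand. They are chr17:15265277-15265576, minus strand for PMP22, chr5:40909247-40909546, plus strand for C7, chrX:30309341-30309640, minus strand for NR0B1 and chr5:96433199-96433498, minus strand for PCSK1. Capitals mark the ETS core GGAA or its reverse complement TTCC.
PMP22: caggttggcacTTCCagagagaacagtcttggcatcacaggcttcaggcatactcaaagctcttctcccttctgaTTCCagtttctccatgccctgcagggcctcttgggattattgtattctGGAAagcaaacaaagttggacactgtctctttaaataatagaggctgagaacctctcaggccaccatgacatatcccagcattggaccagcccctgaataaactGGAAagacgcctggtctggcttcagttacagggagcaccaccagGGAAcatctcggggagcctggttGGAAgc
C7: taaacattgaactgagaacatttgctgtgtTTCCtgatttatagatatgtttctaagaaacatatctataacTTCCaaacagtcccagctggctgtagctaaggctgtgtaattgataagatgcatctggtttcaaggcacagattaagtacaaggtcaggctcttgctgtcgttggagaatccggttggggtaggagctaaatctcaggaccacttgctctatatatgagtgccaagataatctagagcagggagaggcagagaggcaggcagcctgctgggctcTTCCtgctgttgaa
NR0B1: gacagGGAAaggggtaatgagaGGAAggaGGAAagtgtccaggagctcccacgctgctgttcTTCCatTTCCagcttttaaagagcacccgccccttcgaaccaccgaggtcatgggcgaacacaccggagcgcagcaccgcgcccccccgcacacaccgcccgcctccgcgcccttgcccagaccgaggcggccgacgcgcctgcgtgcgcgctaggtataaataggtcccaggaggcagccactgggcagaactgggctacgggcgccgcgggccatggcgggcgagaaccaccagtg
PCSK1: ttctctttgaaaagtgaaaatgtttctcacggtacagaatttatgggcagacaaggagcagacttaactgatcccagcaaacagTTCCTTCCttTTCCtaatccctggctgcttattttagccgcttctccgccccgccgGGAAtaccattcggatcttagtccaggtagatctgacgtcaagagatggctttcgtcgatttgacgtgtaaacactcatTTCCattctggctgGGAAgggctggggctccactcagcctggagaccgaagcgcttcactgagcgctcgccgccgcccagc
The core itself is common: GGAA on either strand was present in 95.3% of the 11744 tested genes with a promoter in that table, with a median of 3. PMP22 had 6 copies, C7 had 3, NR0B1 had 5 and PCSK1 had 6. The tandem GGAAGGAA, each copy of which also holds the core, was present on either strand in 3.47% of tested genes, in 39 of 830 genes at least 2-fold higher (4.7%) and in 6 of 232 at least 2-fold lower (2.59%). Of the 12 largest rises and 12 largest falls, 9 each had a promoter in the table. A match is a description of these letters and not of binding, and distal repeats lie outside these windows.

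The largest rises were mostly genes of membrane, matrix and secreted proteins, and most rises stood between the control and the knockdown level. The rule that named the largest rises and falls required a call and groups that did not overlap, so the lack of overlap in them is no further result. PMP22, a myelin membrane protein, stood at 9.81, 10.42, 11.31, 10.24 and 11.48 in wild-type rescue replicates 1 to 5, against 5.92, 5.97, 5.86 and 5.73 in control. That is 27.5-fold higher (4.78 ± 0.23, adjusted p = 2.89e-09), and the knockdown averaged 13.49 ± 0.29 (SD, n = 5). Every rescue library was far above every control library, and replicates 3 and 5 were the highest. S100A16, a calcium-binding protein, stood at 9.25, 9.32, 10.48, 9.58 and 10.86 in the wild-type rescue, against 5.78, 5.80, 5.61 and 5.57 in control. CDH13, a cadherin anchored to the membrane by lipid, stood at 9.67, 9.96, 10.68, 9.94 and 10.86 in the wild-type rescue, against 6.53, 6.23, 6.41 and 6.21 in control. PDGFA, a growth factor ligand, stood at 9.48, 9.66, 10.92, 9.38 and 10.48 in the wild-type rescue, against 5.89, 6.30, 6.44 and 5.98 in control. Replicates 3 and 5 were again the highest in all 3, the groups were apart as the rule required, and knockdown means were 12.80 ± 0.18, 13.52 ± 0.12 and 12.52 ± 0.08 (SD, n = 5). The differences were 4.26 ± 0.25 for S100A16, 3.91 ± 0.19 for CDH13 and 3.87 ± 0.22 for PDGFA. THBS2, a matricellular glycoprotein, differed by 4.13 ± 0.22, and CSPG4, a membrane proteoglycan, by 3.86 ± 0.32 (adjusted p = 7.28e-09 and 3.64e-07).

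In most of a second set of large rises the rescue lay near the knockdown level or above it. IGSF21, an adhesion protein of synapses, stood at 9.86, 10.86, 9.92, 10.48 and 9.26 in wild-type rescue replicates 1 to 5, against 5.84, 5.00, 5.24 and 5.24 in control. Its difference was 4.69 ± 0.26 (adjusted p = 7.67e-09), while the knockdown averaged 3.60 ± 0.17 (SD, n = 5), below control. The rescue was thus above control in a gene whose knockdown minus control was -1.79 (adjusted p = 1.08e-05), set against the same control libraries. A2M, a broad protease inhibitor, stood at 10.67, 10.03, 11.13, 9.89 and 10.61 in the wild-type rescue, against 6.46, 5.46, 5.52 and 5.17 in control. PCSK1, a convertase that cleaves prohormones, stood at 10.59, 10.67, 10.86, 10.91 and 10.48 in the wild-type rescue, against 5.98, 7.06, 7.40 and 7.11 in control. CRYAB, a small heat shock protein, stood at 10.04, 9.17, 8.97, 9.86 and 10.86 in the wild-type rescue, against 5.54, 6.23, 6.39 and 5.63 in control. By the naming rule none of these 3 overlapped between the groups, and knockdown means were 9.94 ± 1.03, 10.78 ± 0.41 and 10.05 ± 0.29 (SD, n = 5). Rescue minus knockdown was 0.52 for A2M, -0.08 for PCSK1 and -0.27 for CRYAB, none of them called (adjusted p = 0.213, 0.768 and 0.439). GDF15, a stress-induced cytokine of the TGF-beta family, ranged from 7.96 to 10.91 in the wild-type rescue with replicate 3 highest, and from 4.76 to 5.72 in control (4.03 ± 0.39). Its knockdown mean was 8.8 ± 0.64 (SD, n = 5), and rescue minus knockdown was 0.54, not called (adjusted p = 0.194). COL11A1, a chain of a fibrillar collagen, differed by 3.88 ± 0.27. Unlike the others here, COL11A1 was called below the knockdown, with rescue minus knockdown at -0.61 (adjusted p = 0.0407).

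The largest fall was C7, a component of the complement membrane attack complex. C7 stood at 6.07, 3.82, 3.24, 4.31 and 3.19 in wild-type rescue replicates 1 to 5, against 11.79, 9.84, 9.01 and 9.59 in control, and at 3.49 ± 0.24 in the knockdown (SD, n = 5). The difference was -6.06 ± 0.48 (adjusted p = 2.52e-07), and rescue minus knockdown was 0.63, not called (adjusted p = 0.227). Replicate 1 was the highest library of both groups, and the groups, which the naming rule required not to overlap, were far apart. Its neighbour in that complex, C6, stood at 5.68, 6.63, 5.25, 5.95 and 4.77 in the wild-type rescue, against 8.80, 8.15, 7.80 and 7.73 in control (-2.52 ± 0.28, adjusted p = 4.58e-06). LIN28B, an RNA-binding protein that blocks let-7 maturation, stood at 10.98, 7.28, 9.79, 10.28 and 9.87 in the wild-type rescue, against 12.92, 11.66, 11.52 and 12.25 in control. LIN28B was spread widely within the rescue, with replicate 2 near the knockdown mean of 7.02 ± 1.10 (SD, n = 5), and all 5 lay below control (-2.61 ± 0.35, adjusted p = 2.77e-05).

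TNFSF13B, the B-cell survival ligand BAFF, stood at 6.26, 6.55, 7.10, 6.27 and 5.83 in wild-type rescue replicates 1 to 5, against 10.16, 9.25, 8.80 and 8.89 in control. The knockdown averaged 8.77 ± 0.48 (SD, n = 5), so that the rescue was also below the knockdown, by -2.36 (adjusted p = 1.55e-06). TLL1, a tolloid-like protease, had the narrowest rescue values of the falls shown, 7.52, 7.42, 7.44, 7.58 and 7.41, against 10.71, 10.37, 10.12 and 10 in control. It too lay below its knockdown mean of 8.27 ± 0.46 (SD, n = 5; rescue minus knockdown -0.80, adjusted p = 0.00482). Among the other largest falls, in which the groups were apart as well, as the naming rule required, were NUP210, a nuclear pore protein (-3.0 ± 0.29), GPR160, an orphan receptor (-2.95 ± 0.17), PLA2G3, a secreted phospholipase (-2.67 ± 0.39), KRT17, a keratin (-2.63 ± 0.33), GYG2, a glycogen primer (-2.52 ± 0.21), and ALPL, an alkaline phosphatase (-2.40 ± 0.32). The smallest adjusted p values, 2.46e-10, belonged to SHROOM4, an actin regulator (2.07 ± 0.08), and HAPLN1, a link protein of hyaluronan (-3.67 ± 0.14), which were chosen after their values were seen.

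**Figure D2:**
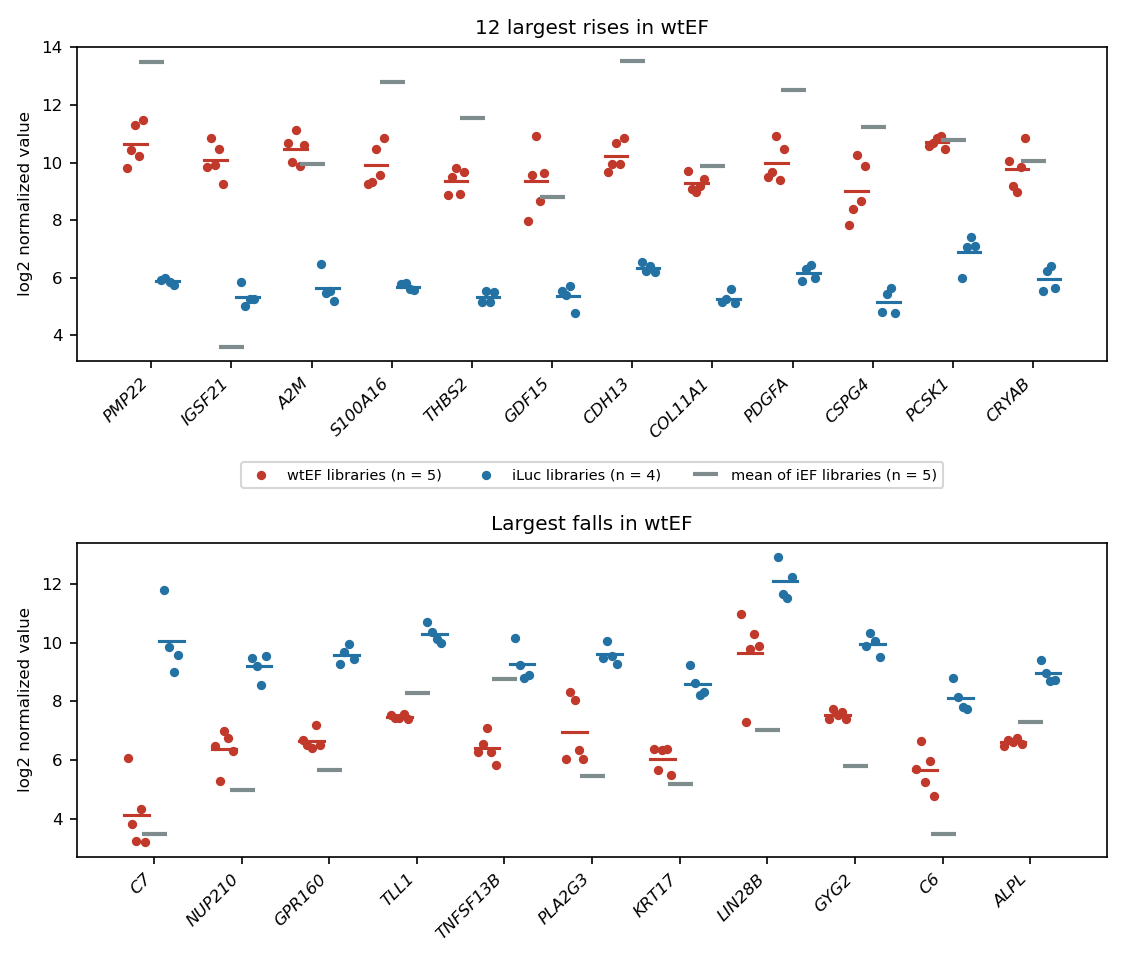
Log2 normalized value in each library of the 12 largest rises (top) and of the largest falls (bottom, 1 not shown). Red points are the 5 wild-type rescue libraries, blue points the 4 control libraries, short lines their means, and grey marks the mean of the 5 knockdown libraries. IGSF21 has its knockdown mark below control, and TLL1, TNFSF13B and ALPL have theirs above the rescue.

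Genes known to be activated by EWS/FLI lay nearer control in the rescue than in the knockdown, and some stayed lower. Of 60 tested, 9 were higher and 22 lower, 10 of the lower ones by at least 2-fold, against shares of 24.1% higher and 21% lower over all genes. Their median difference was -0.13 in the rescue, beside -2.49 in the knockdown, which was set against the same control libraries. The interval lay within 2-fold of control for 38 of them (63.3%), beside 81.1% of all genes. Their mean level was 11.32, 11.28, 11.07, 11.56 and 11.16 in wild-type rescue replicates 1 to 5, against 11.60, 11.58, 11.58 and 11.51 in control and 8.94 to 9.61 over the knockdown libraries. Only replicate 4 of the rescue reached the control range.

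NR0B1, an orphan nuclear receptor that Ewing cells need for transformed growth, stood at 11.29, 11.19, 11.50, 11.65 and 11.41 in wild-type rescue replicates 1 to 5, against 11.51, 11.60, 11.69 and 11.52 in control. NKX2-2, a homeodomain repressor, stood at 9.57, 9.64, 9.4, 9.85 and 9.26 in the wild-type rescue, against 9.93, 9.69, 9.53 and 9.5 in control. PRKCB, a protein kinase C, stood at 14.05, 14.32, 13.87, 14.57 and 14.13 in the wild-type rescue, against 14.13, 14.29, 14.35 and 14.38 in control. All 3 overlapped between the groups, and none was called in the fit of all groups: differences were -0.20 (95% interval -0.66 to 0.26), -0.19 (-0.48 to 0.10) and -0.14 (-0.67 to 0.38). NR0B1 was lower in all 4 shared batches and was called in the fit of the wild-type rescue and control alone (-0.23, adjusted p = 0.0349). Knockdown means of the 3 genes were 9.45 ± 0.72, 7.23 ± 0.33 and 10.65 ± 0.67 (SD, n = 5). STEAP1, a protein of the cell surface, differed by 0.01 (-0.28 to 0.30) and BCL11B, a zinc finger factor, by -0.11 (-0.47 to 0.26). FCGRT, the neonatal Fc receptor, differed by -0.23 (-0.63 to 0.17) and EZH2, the polycomb methyltransferase, by -0.09 (-0.25 to 0.08). None of them was called, though FCGRT was in the fit of the wild-type rescue and control alone (-0.34, adjusted p = 0.0485).

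TERT, the catalytic subunit of telomerase, stood at 4.98, 4.36, 5.19, 5.41 and 4.79 in wild-type rescue replicates 1 to 5, against 7.43, 7.64, 7.5 and 8.04 in control. It was 6.78-fold lower (-2.76 ± 0.23, adjusted p = 3.57e-07), with a knockdown mean of 3.67 ± 0.69 (SD, n = 5). KIT, the receptor of stem cell factor, stood at 8.10, 6.90, 6.71, 8.37 and 7.42 in the wild-type rescue, against 9.12, 9.97, 9.92 and 9.75 in control (-2.26 ± 0.27, adjusted p = 8.38e-06). The rescue was also below the knockdown mean of 8.50 ± 0.20 (SD, n = 5), by -1.0 (adjusted p = 0.00207). PPP1R1A, an inhibitor subunit of protein phosphatase 1, stood at 9.71, 9.65, 8.92, 9.72 and 9.0 in the wild-type rescue, against 11.35, 11.44, 11.40 and 10.97 in control (-1.93 ± 0.24, adjusted p = 1.6e-05). Unlike KIT, it lay far above its knockdown mean of 5.73 ± 0.45 (SD, n = 5). CLUL1, a clusterin-like protein, differed by -2.14 ± 0.24, and CAV1, a coat protein of caveolae, by -0.57 ± 0.13. GSTM4, whose reads may be shared with near-identical genes, differed by -0.47 ± 0.16 (adjusted p = 0.0223), a call lost without rescue replicates 3 and 5 (-0.24, adjusted p = 0.255). The GSTM4 call was also lost without the replicate block, without rescue replicate 3 or 5 alone, and without control replicate 2, 3 or 5. LIPI, a lipase, differed by -0.58 ± 0.27, not called (adjusted p = 0.0952). The groups did not overlap for LIPI, which was lower in all 4 shared batches. It was called in the fit of both groups alone (-0.53, adjusted p = 0.00986), without rescue replicate 2 (-0.77, adjusted p = 0.0338) and without control replicate 3 (-0.8, adjusted p = 0.0382).

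The called members above control were led by IGF1, the ligand of the insulin-like growth factor receptor. IGF1 stood at 11.43, 11.66, 11.72, 11.55 and 11.24 in wild-type rescue replicates 1 to 5, against 9.44, 9.70, 9.75 and 9.52 in control, and at 7.12 ± 0.76 in the knockdown (SD, n = 5). It was 3.75-fold higher than in control (1.91 ± 0.24, adjusted p = 1.35e-05), with no overlap. APELA, a secreted ligand of the apelin receptor, differed by 1.07 ± 0.26, and JARID2, a polycomb cofactor, by 0.71 ± 0.14. UPP1, a uridine phosphorylase, differed by 1.72 ± 0.20 but was higher still in the knockdown, at 9.85 ± 0.40 (SD, n = 5) beside 8.38 ± 0.57 in the rescue (SD, n = 5). CCND1, cyclin D1, differed by 0.27 ± 0.10 (adjusted p = 0.0347), a call lost after trimmed-mean scaling (0.16, adjusted p = 0.218), without the replicate block and without rescue replicates 3 and 5. It was also lost with array weights, in the fit of both groups alone and in the shared batches only. Leaving out rescue replicate 2, 3 or 4 or control replicate 1, 2 or 3 ended it too. Of 25 genes listed near GGAA repeats, 5 were higher and 6 lower (median -0.14), and 3 and 4 without rescue replicates 3 and 5; 10 were lower in the fit of both groups alone, and 3 higher without rescue replicate 2, control replicate 2 or control replicate 3. Their interval was within 2-fold of control for 17 (68.0%). EGR2, a zinc finger factor of Schwann cells and a Ewing susceptibility gene, was the largest rise named there, at 2.31 ± 0.29, and CYP4F22, a fatty acid hydroxylase, differed by 0.02 (adjusted p = 0.946).

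**Figure D3:**
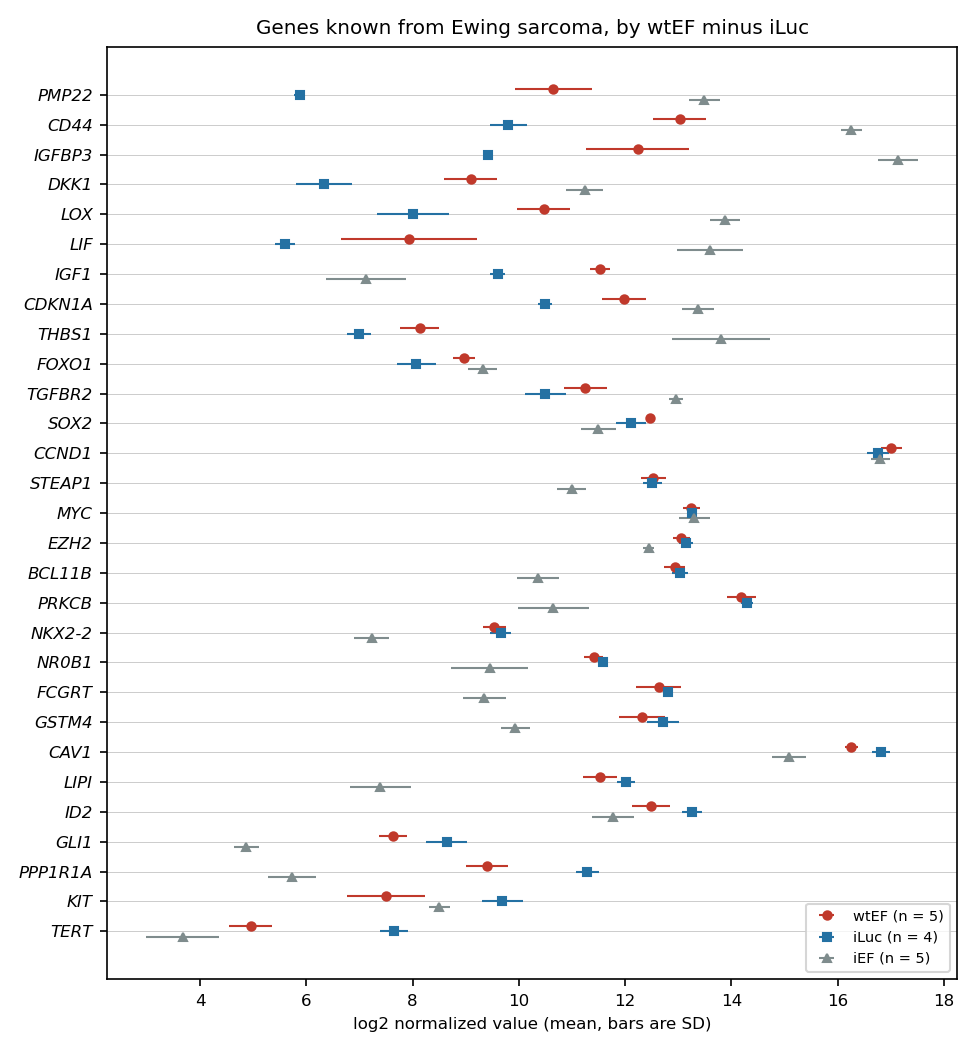
Mean log2 normalized value (bars are SD) of 29 genes known from Ewing sarcoma in the wild-type rescue (red circles), control (blue squares) and knockdown (grey triangles), ordered by rescue minus control. At the bottom TERT, KIT, PPP1R1A and GLI1 lie left of control, in the middle the red and blue symbols coincide, and at the top PMP22, CD44 and IGFBP3 lie between control and knockdown.

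Genes known to be held down by the fusion mostly stayed above control. Of 31 tested, 27 were higher and 0 lower, 21 of them by at least 2-fold, with a median of 1.32 beside 4.20 in the knockdown against the same control libraries. Without rescue replicates 3 and 5, 22 were higher. Their mean level was 10.34, 10.28, 11.01, 10.41 and 11.09 in wild-type rescue replicates 1 to 5, against 8.77, 8.86, 9.08 and 9.02 in control and 13.21 to 13.43 over the knockdown. Replicates 3 and 5 were the highest, and the other 3 also lay above control. CD44, the hyaluronan receptor, stood at 12.86, 12.51, 13.30, 12.74 and 13.77 in the wild-type rescue, against 9.29, 9.87, 10.09 and 9.96 in control (3.29 ± 0.19, adjusted p = 1.06e-08). IGFBP3, which binds insulin-like growth factors, stood at 11.16, 11.39, 13.15, 12.24 and 13.27 in the wild-type rescue, against 9.47, 9.33, 9.53 and 9.34 in control (2.77 ± 0.29). SNAI2, the mesenchymal factor SLUG, averaged 9.63 ± 0.27 in the rescue and 7.11 ± 0.31 in control (SD, n = 5 and 4; 2.51 ± 0.19). FOXO1, a forkhead factor, differed by 0.84 ± 0.17, TGFBR2, a TGF-beta receptor, by 0.77 ± 0.16 and THBS1, a matricellular inhibitor of vessel growth, by 1.34 ± 0.32, or 0.99 without rescue replicates 3 and 5 (adjusted p = 0.0523). ITGB1, the beta 1 integrin, overlapped between the groups and differed by 0.01 (-0.13 to 0.15), though the knockdown averaged 15.75 ± 0.14 (SD, n = 5).

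Most collagen and matrix glycoprotein genes stayed above control. Of 23 collagen chains, 13 were higher and 2 lower (median 0.89, or 0.44 without rescue replicates 3 and 5), and of 30 matrix glycoproteins 18 were higher and 2 lower (median 0.87). The collagen level was 9.52, 9.62, 10.19, 9.49 and 9.74 in wild-type rescue replicates 1 to 5, against 8.48, 8.83, 8.76 and 8.59 in control and 11.11 to 11.56 over the knockdown. All 5 rescue libraries were above control and below the knockdown. COL8A1 differed by 2.81 ± 0.25, and the collagen VI chains COL6A2 and COL6A3 by 2.25 ± 0.23 and 2.54 ± 0.31. COL4A1, of basement membranes, was lower (-0.57 ± 0.19), a call lost without control replicate 2 (-0.42, adjusted p = 0.115). That call was also lost without rescue replicate 2, 4 or 5 or control replicate 1. COL4A2 beside it differed by -0.12, not called (adjusted p = 0.601). FN1, fibronectin, stood at 17.98, 17.75, 18.25, 17.73 and 18.07 in the wild-type rescue, against 16.81, 16.96, 16.96 and 16.88 in control (1.02 ± 0.13, adjusted p = 1.64e-05). TGFBI, an adhesion protein induced by TGF-beta, differed by 2.44 ± 0.25, and DCN, the proteoglycan decorin, by 1.84 ± 0.23 with a knockdown mean of 4.23 ± 0.32, below its rescue mean of 6.89 ± 0.66 (SD, n = 5 each). FBN2, a fibrillin, was lower (-1.62 ± 0.28).

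Of 18 enzymes that process and cross-link collagen, 8 were higher and 0 lower, or 13 and 1 in the fit of both groups alone. The higher ones were led by the lysyl oxidases LOXL2 (3.16 ± 0.20) and LOX (2.45 ± 0.24) and by BMP1, the procollagen C-proteinase (1.29 ± 0.12). LOX stood at 10.16, 10.02, 10.72, 10.22 and 11.24 in wild-type rescue replicates 1 to 5, against 7.22, 8.17, 8.83 and 7.78 in control, with no overlap. Among 29 matrix proteases and inhibitors, 16 were higher and 2 lower, or 15 and 1 without rescue replicates 3 and 5. MMP2, a gelatinase, differed by 2.36 ± 0.23, ADAM19, a membrane metalloprotease, by 2.94 ± 0.25 and SERPINE2, a serpin, by 1.44 ± 0.13. CTSL, cathepsin L, differed by 0.02, not called (adjusted p = 0.954).

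Adhesion genes were mostly higher too. Of 30 integrin and focal adhesion genes, 24 were higher and 1 lower (median 0.71), and 15 and 1 without rescue replicates 3 and 5. ITGA3, an integrin alpha chain, stood at 9.66, 9.41, 10.85, 10.20 and 11.09 in wild-type rescue replicates 1 to 5, against 7.56, 8.03, 8.32 and 8.14 in control (2.25 ± 0.25). ZYX, zyxin of focal adhesions, differed by 1.28 ± 0.12, ITGB8 by 2.22 ± 0.28 and LAMB1, a laminin chain, by 0.72 ± 0.09; the 1 lower member was CAV1. Among 31 actin and SRF/YAP genes, 14 were higher and 3 lower, and 9 and 3 without those libraries; 7 were lower after trimmed-mean scaling. LATS2, a Hippo pathway kinase, differed by 1.12 ± 0.10, TPM1, a tropomyosin, by 1.34 ± 0.22, and YAP1, the coactivator that LATS kinases restrain, by -0.37 ± 0.04. FLNA, filamin A, overlapped between the groups (95% interval -0.16 to 0.15). Of 20 mesenchymal factors and markers 13 were higher and 1 lower. NT5E, the surface nucleotidase CD73, differed by 2.21 ± 0.24, and ZEB2 by 0.81 ± 0.05.

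Signalling genes were split by pathway. In the TGF-beta list 16 of 24 were higher and 1 lower (median 0.52), with LTBP1, which stores the latent ligand, at 1.72 ± 0.19, PMEPA1, a target and feedback inhibitor, at 1.29 ± 0.12 and SKI, a repressor of SMADs, at 1.06 ± 0.08. SMAD2, which carries the signal, was lower (-0.20 ± 0.05). In the BMP and ID list 8 of 18 were higher and 2 lower. BMP2, a ligand, differed by 3.44 ± 0.69 and ID4 by 1.28 ± 0.11, whereas ID2, a known fusion target, stood at 12.88, 12.68, 11.97, 12.61 and 12.30 in wild-type rescue replicates 1 to 5, against 13.54, 13.15, 13.20 and 13.16 in control (-0.76 ± 0.11). In the Wnt list 7 of 20 were higher and 1 lower. DKK1, a secreted Wnt antagonist, stood at 9.03, 8.51, 8.90, 9.15 and 9.88 in the wild-type rescue, against 5.67, 6.21, 6.88 and 6.54 in control (2.71 ± 0.24, adjusted p = 5.85e-07). DKK3 differed by 3.03 ± 0.22 and the ligand WNT5B by 1.76 ± 0.14, and WNT5A was lower (-1.23 ± 0.19). AXIN2, a general Wnt target, overlapped between the groups (0.08, 95% interval -0.30 to 0.46).

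In the insulin-like growth factor axis 9 of 18 were higher and 1 lower, though 3 were lower without rescue replicate 3, or without replicates 3 and 5, and 4 after trimmed-mean scaling. The higher members included the binding proteins IGFBP7 (3.32 ± 0.16), IGFBP5 (2.61 ± 0.25) and IGFBP4 (2.08 ± 0.24) beside IGFBP3 and the ligand IGF1. The 1 member called lower with all libraries was IGF2BP1, an RNA-binding protein (-0.39 ± 0.08). The receptor IGF1R differed by -0.15, not called (adjusted p = 0.24), or by -0.29 without rescue replicates 3 and 5 (adjusted p = 0.0336). In the hedgehog list 0 of 12 were higher and 4 lower (median 0.09). In the fit of both groups alone, or of the shared batches only, 2 were higher. Without rescue replicate 1 or 4, or control replicate 3 or 5, 1 was higher. The lower ones were the effector GLI1, the signal transducer SMO (-0.76 ± 0.18), the co-receptor GAS1 (-0.50 ± 0.12) and the receptor PTCH1 (-0.34 ± 0.10). The call of GAS1 was lost without the replicate block (-0.42, adjusted p = 0.117) and that of PTCH1 without rescue replicates 3 and 5 (-0.21, adjusted p = 0.112). GLI1, a known target of the fusion, stood at 8.04, 7.40, 7.71, 7.61 and 7.37 in wild-type rescue replicates 1 to 5, against 9.15, 8.48, 8.22 and 8.71 in control (-1.02 ± 0.18, adjusted p = 0.000291). Its knockdown mean was 4.87 ± 0.23 (SD, n = 5). SUFU, the brake on GLI factors, differed by 0.16, not called (adjusted p = 0.132).

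Of 32 receptor tyrosine kinases, 13 were higher and 7 lower. KDR, a receptor of VEGF, differed by 2.82 ± 0.31 and EPHA4 by 1.27 ± 0.11, while RET (-1.40 ± 0.17), FGFR4 (-1.67 ± 0.21) and the collagen receptor DDR1 (-0.91 ± 0.13) were lower. In the IL6 family 11 of 19 were higher and 0 lower, or 10 and 1 without rescue replicates 3 and 5. The higher ones were led by STAT3, the factor downstream of these receptors (1.33 ± 0.11), the feedback inhibitor SOCS2 (2.14 ± 0.21), IL6R (1.66 ± 0.17) and IL11 (2.86 ± 0.33). LIF, a ligand of the family, stood at 7.14, 7.08, 9.92, 6.96 and 8.53 in wild-type rescue replicates 1 to 5, against 5.66, 5.30, 5.73 and 5.68 in control, and 13.60 ± 0.62 in the knockdown (SD, n = 5). Replicates 3 and 5 were again the highest, and LIFR, its receptor, differed by 0.03, not called (adjusted p = 0.813).

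Interferon-stimulated genes varied more between the rescue libraries than any other group of genes listed. Of 34 tested, 28 were higher and 0 lower (median 1.41), 22 were higher without replicate 3, and 14 without replicates 3 and 5. There were 16 without control replicate 3 and 17 without the replicate block. Their mean level was 8.35, 9.58, 11.97, 8.45 and 9.26 in wild-type rescue replicates 1 to 5, against 7.92, 8.18, 8.32 and 8.05 in control, and 11.93 to 12.91 over the knockdown. Replicate 3 lay within the knockdown range, replicates 2 and 5 between, and replicates 1 and 4 close above control. MX1, an antiviral GTPase, stood at 6.84, 9.45, 13.67, 6.54 and 8.47 in the wild-type rescue, against 6.21, 6.95, 7.02 and 6.44 in control. IFIT1, which binds viral RNA, stood at 8.58, 10.75, 13.41, 8.55 and 10.07 in the wild-type rescue, against 7.85, 8.03, 8.47 and 7.59 in control. SAMD9, an antiviral factor, stood at 9.97, 11.18, 12.92, 10.16 and 11.03 in the wild-type rescue, against 8.73, 8.41, 8.32 and 8.52 in control. Replicate 3 was the highest in all 3, with differences of 2.52 ± 0.75, 2.43 ± 0.52 and 2.67 ± 0.36. MX1 overlapped between the groups and was not called without replicates 3 and 5 (1.24, adjusted p = 0.0816). Its call was also lost without control replicate 3 (1.95, adjusted p = 0.0628) and without the replicate block (2.34, adjusted p = 0.0733). BST2, tetherin, ranged from 4.73 to 11.47 in the rescue and from 5.48 to 6.71 in control, not called (adjusted p = 0.217), and IFI44L likewise from 8.36 to 13.35 and from 8.69 to 10.39 (adjusted p = 0.196). EPSTI1 and IFI6 completed the 6 genes with the largest SD among the rescue libraries, at 2.20 and 2.15, beside 2.87 for MX1.

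NF-kB and chemokine genes were also highest in rescue replicate 3. Of 25 tested, 16 were higher and 0 lower (median 1.47), 12 without replicate 3 and 7 without replicates 3 and 5. There were 10 without control replicate 2 and 9 without control replicate 3. Their mean level was 8.09, 8.39, 10.67, 7.81 and 8.71 in wild-type rescue replicates 1 to 5, against 7.49, 7.31, 7.47 and 7.65 in control and 10.79 to 12.77 over the knockdown. ICAM1, an adhesion molecule, stood at 8.22, 9.59, 12.83, 8.37 and 9.48 in the wild-type rescue, against 6.61, 6.95, 7.16 and 6.78 in control (2.84 ± 0.56). Replicate 3 was the highest. CXCL8, a chemokine, differed by 2.42 ± 0.36 and TNFAIP3, the feedback inhibitor A20, by 2.71 ± 0.40, while NFKBIA, the inhibitor bound to NF-kB, differed by 0.16, not called (adjusted p = 0.657). In the MHC class I list 10 of 21 were higher and 1 lower, or 5 higher without the replicate block. Their mean level was 10.47, 11.04, 12.23, 10.74 and 10.8 in wild-type rescue replicates 1 to 5, against 9.94, 10.79, 10.79 and 10.5 in control. The groups thus overlapped, and rescue replicate 3 was the highest. HLA-E (1.23 ± 0.14) and HLA-B (2.25 ± 0.46), which share reads with near copies and are uncertain, were higher. HLA-B stood at 14.95 in rescue replicate 3 and between 10.95 and 11.96 in the others. The chaperone CANX was lower (-0.47 ± 0.10).

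**Figure D4:**
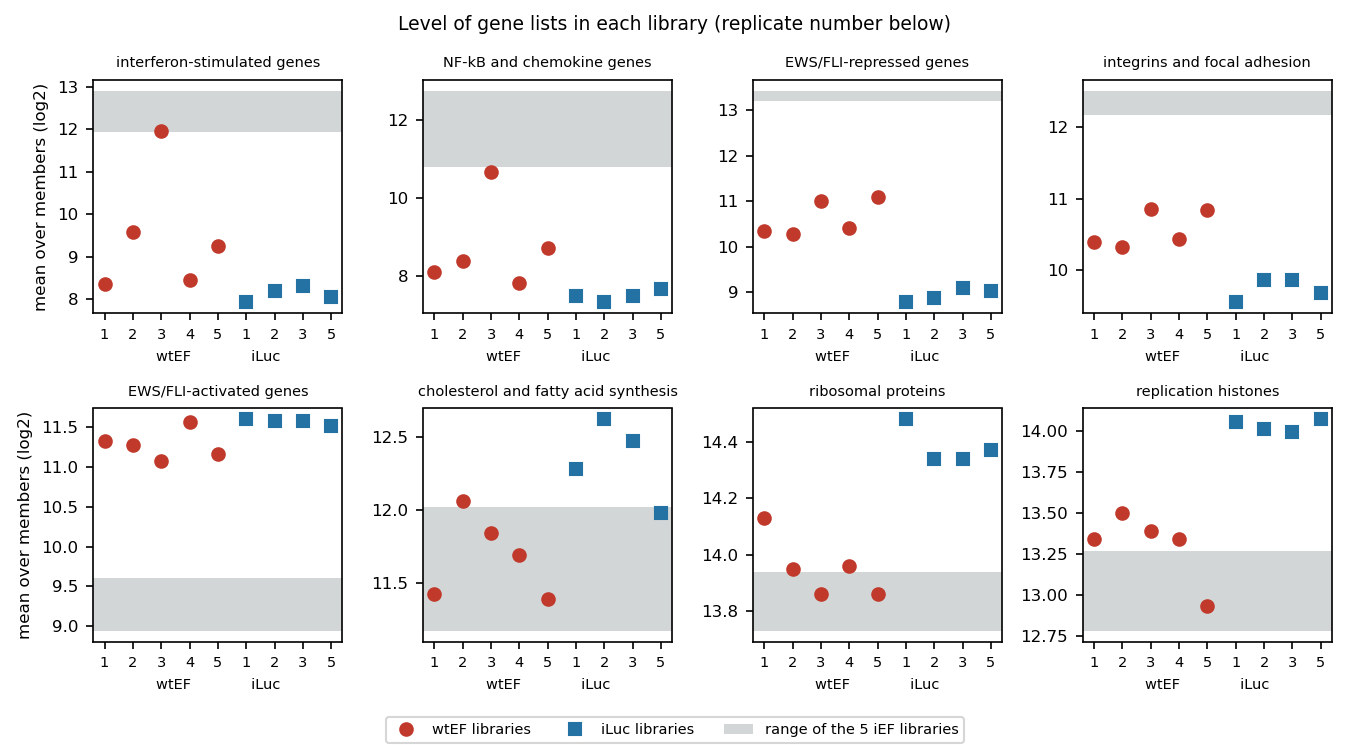
Mean log2 value over the tested members of 8 gene lists in each wild-type rescue library (red circles) and control library (blue squares), with the replicate number on the x axis and the range of the 5 knockdown libraries in grey. Replicate 3 of the rescue is at or near the grey band for the interferon and NF-kB lists; the ribosomal protein and replication histone levels of every rescue library are below every control library.

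Genes of growth and division were lower in the wild-type rescue, mostly by less than 2-fold. Of 35 DNA replication genes 29 were lower and 0 higher (median -0.48), and of 30 mitosis genes 19 were lower and 0 higher (median -0.30). PCNA, the sliding clamp of DNA polymerases, stood at 13.17, 13.24, 13.02, 13.04 and 12.66 in wild-type rescue replicates 1 to 5, against 14.10, 14.04, 13.99 and 14.19 in control (-1.07 ± 0.13, adjusted p = 1.36e-05). The groups were apart, and the knockdown averaged 12.91 ± 0.26 (SD, n = 5). MCM4, of the replicative helicase, differed by -0.52 ± 0.08 and FOXM1, which drives mitotic genes, by -0.68 ± 0.10, while ORC6 (-0.03, adjusted p = 0.727) and CENPE (-0.02, adjusted p = 0.871) were not called. All 14 replication histones tested were lower (median -0.75), at a mean level of 13.34, 13.50, 13.39, 13.34 and 12.93 in the wild-type rescue, against 14.05, 14.01, 13.99 and 14.07 in control; near copies share reads, so single histone genes are uncertain. Without replicates 3 and 5, 13 of them were lower. Of 16 cyclins and CDK inhibitors, 4 were higher and 5 lower. CDKN1A, the inhibitor p21, stood at 11.47, 12.08, 12.54, 11.68 and 12.15 in the wild-type rescue, against 10.69, 10.36, 10.48 and 10.44 in control (1.53 ± 0.18). CCNA2, cyclin A2, was lower (-0.85 ± 0.09), CCNA1 higher (1.67 ± 0.14), and RB1 and CDK4 were not called (adjusted p = 0.512 and 0.39).

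Of 30 ribosomal protein genes, 29 were lower and 0 higher (median -0.45), with 28 lower without rescue replicates 3 and 5; pseudogenes may share their reads. Their mean level was 14.13, 13.95, 13.86, 13.96 and 13.86 in wild-type rescue replicates 1 to 5, against 14.48, 14.34, 14.34 and 14.37 in control and 13.73 to 13.94 over the knockdown. RPS19 differed by -0.60 ± 0.06 and RPLP0 by -0.60 ± 0.07. Every rescue library was below every control library for the list. In the telomerase and MYC list 12 of 21 were lower and 3 higher. MYC itself stood at 12.99, 13.31, 13.36, 13.20 and 13.35 in the wild-type rescue, against 13.26, 13.26, 13.27 and 13.26 in control (-0.03, 95% interval -0.31 to 0.24). NPM1, nucleophosmin, was lower (-0.89 ± 0.11), and MYCN (1.32 ± 0.30) and the MYC antagonist MXD1 (1.08 ± 0.17) were higher.

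Most sterol synthesis and respiratory chain genes were lower as well. Of 28 cholesterol and fatty acid synthesis genes 25 were lower and 0 higher (median -0.69). Their mean level was 11.42, 12.06, 11.84, 11.69 and 11.39 in wild-type rescue replicates 1 to 5, against 12.28, 12.62, 12.47 and 11.98 in control. The groups thus overlapped at this level. Among single members, 9 of the 28 were lower with no overlap, beside 14.7% of all genes. DHCR7, the last enzyme of cholesterol synthesis, stood at 10.94, 11.88, 11.55, 11.23 and 10.69 in wild-type rescue replicates 1 to 5, against 12.60, 13.22, 13.01 and 12.45 in control (-1.63 ± 0.18, adjusted p = 3.84e-06). EBP, a sterol isomerase, differed by -0.78 ± 0.08 and ELOVL6, a fatty acid elongase, by -0.98 ± 0.10. SREBF2, the factor that drives the pathway, overlapped between the groups (-0.03, 95% interval -0.21 to 0.16). Of 31 nuclear subunits of oxidative phosphorylation 27 were lower and 0 higher (median -0.30), with ATP5F1A at -0.71 ± 0.06. Of the 13 genes of the mitochondrial genome 5 were higher and 0 lower, and 0 were called without rescue replicates 3 and 5 or after trimmed-mean scaling, nor without control replicate 2 or control replicate 3, and 1 without rescue replicate 5. In the glycolysis and hypoxia list 16 of 29 were lower and 6 higher. The glucose transporter SLC2A1 was lower (-1.39 ± 0.14) and its relative SLC2A3 higher (0.96 ± 0.17), as were the hypoxia-responsive NDRG1 (2.50 ± 0.30) and ADM, adrenomedullin (1.62 ± 0.24).

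Of 18 tRNA synthetases 12 were lower and 2 higher, and 7 and 2 after quantile scaling. Without control replicate 1, 7 were lower, and without rescue replicates 3 and 5 1 was higher. HARS, which charges histidine tRNA, was 1 of the 2 higher members. It stood at 12.55, 12.49, 12.61, 12.55 and 12.68 in wild-type rescue replicates 1 to 5, against 11.25, 11.16, 11.15 and 11.32 in control (1.35 ± 0.05, adjusted p = 2.99e-10), and its knockdown mean was 12.73 ± 0.06 (SD, n = 5). It was the 1 synthetase called with at least a 2-fold difference: DARS differed by -0.48 ± 0.05 and AARS by -0.05, not called (adjusted p = 0.676). In the list of serine synthesis, ATF4 and unfolded protein genes 9 of 28 were higher and 7 lower, though 5 were higher without the replicate block and 4 lower without rescue replicate 5 or control replicate 1. The stress factor DDIT3 (1.29 ± 0.20) and the chaperone partner DNAJB9 (1.02 ± 0.14) were higher, and PHGDH (-0.59 ± 0.09) and PSAT1 (-0.71 ± 0.16), the first enzymes of serine synthesis, were lower. Among 21 p53 targets 8 (38.1%) were higher and 5 (23.8%) lower, the latter near the 21% of all genes. CDKN1A and GDF15 were among the higher and MDM2 (-0.43 ± 0.09) and CCNG1 (-0.76 ± 0.08) among the lower. Of 19 NRF2 targets 4 (21.1%) were higher and 5 (26.3%) lower, near the shares of all genes, or 2 and 3 without rescue replicates 3 and 5. Heme oxygenase HMOX1 differed by 2.03 ± 0.20. Of 20 heat shock genes 4 were higher and 10 lower, or 4 and 5 after quantile scaling. CRYAB and HSPB8 (1.92 ± 0.26), both small heat shock proteins, were higher, and HSP90AA1 (-0.54 ± 0.07) and its co-chaperone FKBP4 (-1.09 ± 0.13) lower.

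Many neural crest and axon guidance genes were above control. Of 19 Schwann, neural crest and myelin genes 12 were higher and 1 lower (median 1.03), and 12 were higher without rescue replicates 3 and 5. Their mean level was 8.94, 9.02, 9.09, 9.18 and 9.29 in wild-type rescue replicates 1 to 5, against 7.38, 7.72, 7.91 and 7.59 in control and 8.86 to 9.29 over the knockdown, so that the rescue and knockdown ranges overlapped. Rescue minus control was 1.45 for this mean level, or 2.44 with the median over members. MSX1, a homeodomain factor of the neural crest, stood at 9.43, 10.22, 9.88, 10.06 and 9.92 in the wild-type rescue, against 7.21, 7.83, 7.97 and 7.75 in control (2.23 ± 0.11, adjusted p = 3.75e-09). L1CAM, a neural adhesion molecule, differed by 3.48 ± 0.20 and MSX2 by 2.88 ± 0.22; PAX3 was lower (-0.27 ± 0.06). SOX10 and S100B, which define Schwann cells, did not reach the level needed for testing. Of 31 axon guidance genes 16 were higher and 3 lower. The receptor ROBO2 (1.59 ± 0.13) stood at 12.26, 12.56, 12.50, 12.13 and 12.04 in the wild-type rescue, against 10.48, 10.61, 10.87 and 10.79 in control, with a knockdown mean of 9.37 ± 0.17 (SD, n = 5), below control. The receptor PLXNA2 was higher (2.62 ± 0.22) and the ligand SEMA3D lower (-1.75 ± 0.13). Of 20 neural genes 5 were higher and 7 lower, and 4 and 2 without those libraries, and 3 or 4 were lower without rescue replicate 3 or 5 alone or control replicate 2 or 5 alone. GAP43, of growing axons, differed by 2.42 ± 0.20 and ENO2, neuronal enolase, by -1.10 ± 0.12.

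Of 22 ETS factors 9 were higher and 3 lower. ETS1 stood at 10.75, 10.37, 11.79, 11.20 and 11.54 in wild-type rescue replicates 1 to 5, against 8.36, 8.30, 8.92 and 8.40 in control (2.67 ± 0.22, adjusted p = 3.72e-07), with a knockdown mean of 13.66 ± 0.31 (SD, n = 5). The other lower members beside FLI1 were ETV4 (-0.96 ± 0.13) and ETV1 (-0.54 ± 0.13), and ELK1 and GABPA were not called (adjusted p = 0.947 and 0.706). Of 18 HOX genes 3 (16.7%) were higher and 5 (27.8%) lower, none by 2-fold, beside 24.1% and 21% of all genes. The counts were 1 and 4 without rescue replicates 3 and 5, and 1 and 7 after quantile scaling. HOXD13, which Ewing cells express, differed by 0.04 (95% interval -0.21 to 0.29). Of 32 polycomb, BAF and NuRD genes 3 were higher and 10 lower, none by 2-fold, with the deacetylase HDAC1 at -0.91 ± 0.06. SMARCC1, a core BAF subunit, overlapped between the groups (0.01, 95% interval -0.14 to 0.16), beside 12.49 ± 0.16 in the knockdown (SD, n = 5). SOX2 differed by 0.38 (95% interval 0.06 to 0.70), not called (adjusted p = 0.0506), but called under 7 alternatives, among them the fit of both groups alone (0.35, adjusted p = 0.0421) and quantile scaling (0.4, adjusted p = 0.0336).

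Markers of other cell types were checked as whole lists, and their part in the results was not tested. Of 18 epithelial markers 10 passed the filter, 1 higher and 1 lower (0 and 1 without rescue replicates 3 and 5), with mean levels of 5.74 to 6.20 in the wild-type rescue and 5.43 to 5.96 in control. Of 14 endothelial markers 13 passed, 6 (46.2%) higher and 2 (15.4%) lower, beside 24.1% and 21% of all genes. Of the higher ones 4 differed by at least 2-fold, and the median was 0.62. Mean levels were 5.15 to 5.80 in the rescue and 4.72 to 4.80 in control, and 3 were higher and 1 lower without replicates 3 and 5. Among the members not called was VWF, a marker of endothelium (0.17, adjusted p = 0.475). Of 17 immune cell markers 8 passed, 2 higher and 1 lower (2 and 0 without replicates 3 and 5), with mean levels of 4.46 to 4.94 in the rescue and 3.92 to 4.14 in control. ITGAX (2.59 ± 0.35) and ITGAM (2.01 ± 0.45), integrins of myeloid cells, were higher, and PTPRC, the pan-leukocyte CD45, was not called (adjusted p = 0.532); CD3E and LYZ did not reach the level needed for testing. Of 13 muscle and fat markers 6 passed, 2 higher and 0 lower (0 and 0 without replicates 3 and 5), with mean levels of 4.02 to 4.59 in the rescue and 3.90 to 4.34 in control, and MYOD1 and ADIPOQ were below that level. Of 7 nuclear-retained RNAs 3 were higher and 2 lower (2 and 0 without replicates 3 and 5), with mean levels of 12.32 to 12.91 in the rescue and 12.23 to 12.32 in control. Of 18 housekeeping genes 5 were higher and 8 lower (2 and 6 without replicates 3 and 5), none by 2-fold, and GAPDH, also a glycolytic enzyme, was lower (-0.64 ± 0.06). Of 767 lincRNA genes 173 (22.6%) were higher and 68 (8.87%) lower, but after quantile scaling 111 were higher and 131 lower. Fewer cells of a type and less RNA per cell cannot be told apart in these bulk libraries.

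**Figure D5:**
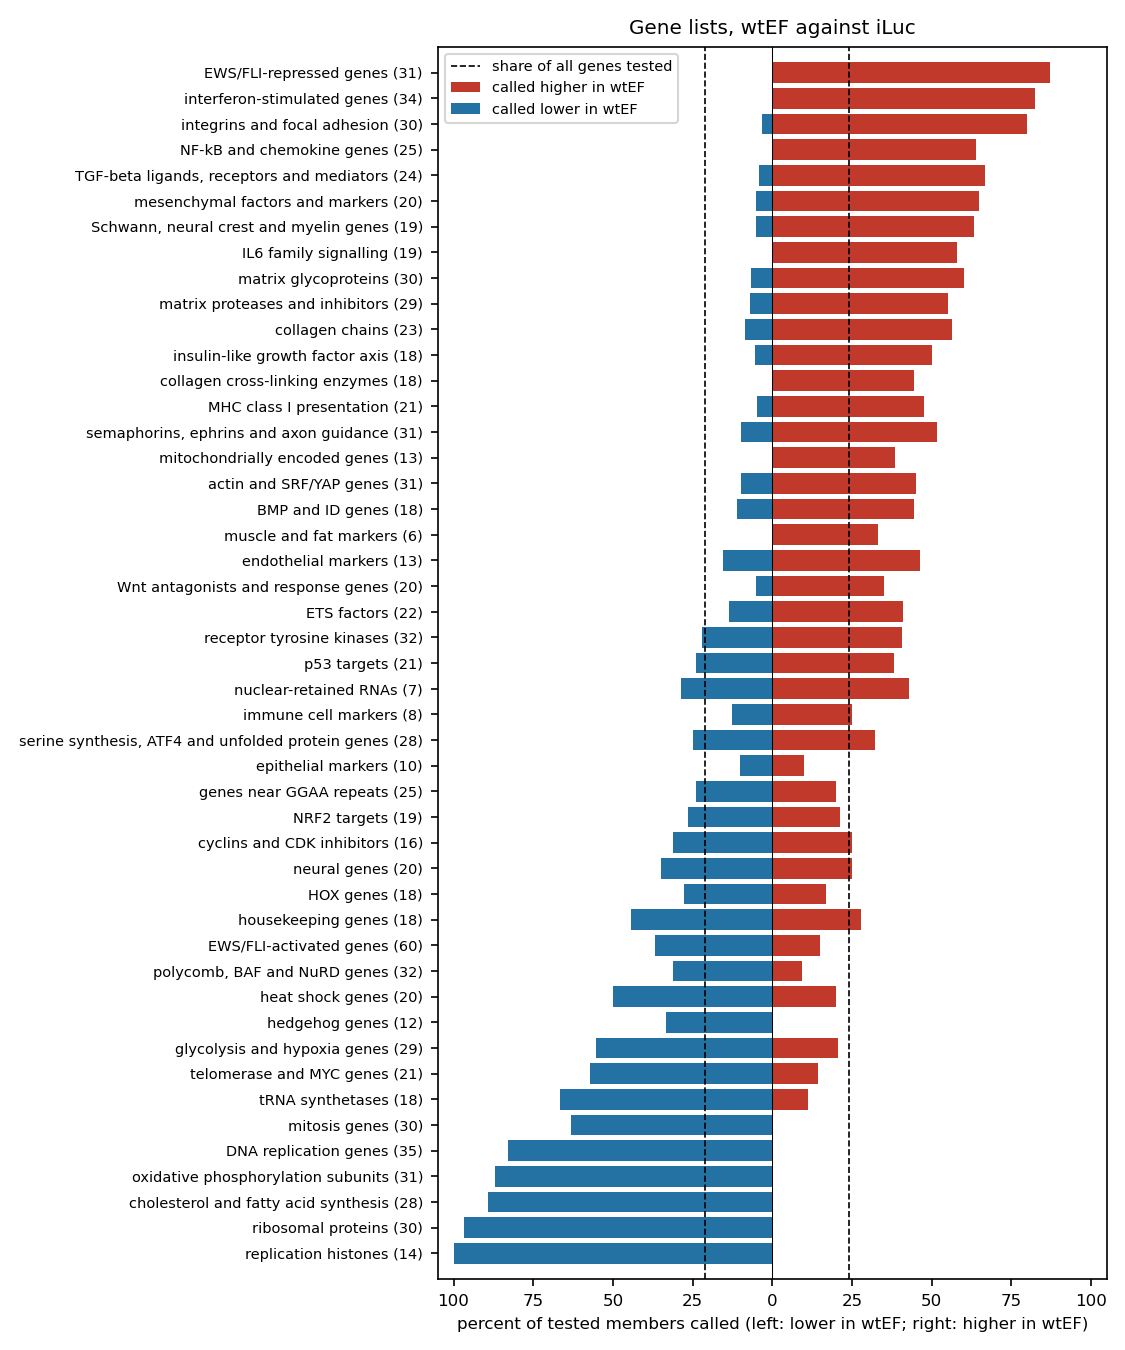
Percent of the tested members of each of 47 gene lists (number tested in brackets) called higher (red, to the right) or lower (blue, to the left) in the wild-type rescue. Dashed lines mark the shares of all genes tested, 24.1% higher and 21% lower. The longest red bars belong to the EWS/FLI-repressed and interferon lists, and the longest blue ones to the histone and ribosomal protein lists.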

How the data were processed

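RNA of A673 cells was sequenced from ScriptSeq libraries (2.5 ug of total RNA from frozen cell pellets, per the labels' protocols). The submitters' processing notes name bcl2fastq, STAR 2.5.2b, HTSeq, DESeq2 and hg19, with roles not given. The table holds log2 values that the authors normalized before they deposited them, from -4.1 to 20.2, with 17358 genes at 0 in every library. They have the form of regularized logarithms, which would draw low genes together and make folds of low genes too small; the exact transformation is not given in the sources used here. Reads per library are not kept, so depth is unknown and no counting interval is given; between 16708 and 17326 genes per library of the 9 reached 10 on the linear scale. All columns of values were used. IDs were joined to GENCODE 29 names (52338 matched, 5482 not).

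The deposited log2 values, with no pseudocount, were fitted with limma 3.58.1 (trend, R 4.3.3) as 1 mean per group plus the replicate number as a block, over all 21 libraries, so that the groups share 1 estimate of spread (12 residual degrees of freedom). Adjusted p is 2-sided, Benjamini-Hochberg over 18040 genes. The labels give the number as the batch. Deviations from the group means correlated at 0.46, 0.20, 0.13 and 0.12 between same-numbered wild-type rescue and control libraries 1, 2, 3 and 5, weakly except for number 1. Over all groups the mean correlation was 0.203 for the 34 pairs with the same number and -0.0488 for other numbers. No 2 libraries were the same (highest correlation 0.9995, no shared non-zero value). In simulated data, 67, 67 and 66 of 18040 genes were given changes of 0.5, 1 and 2 (log2), and all others had no difference. Of these changes 47.8%, 85.1% and 97% were found, with 4 false calls. Noise was drawn separately for each gene, so the simulation held no departure of a whole library. In the real comparison 45.1% of genes were called, so these rates and the false calls need not hold for it.

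The comparison, the 47 gene lists and the naming rule were chosen with earlier results of these data known, and list membership comes from general knowledge. Named genes are FLI1 and EWSR1, the 12 largest rises and falls (called, groups apart, mean over the 9 libraries of 100 or more), up to 4 members per list by smallest adjusted p, called members against a list's direction, the members nearest control, 29 genes known from Ewing sarcoma, and the 6 genes with the largest SD in the rescue. Alternatives were no replicate block, both groups only, batches 1, 2, 3 and 5 only, quantile scaling, trimmed-mean scaling (10% at each end), no filter, a mean of at least 100, array weights, and leaving out each library; leaving out rescue replicates 3 and 5 was added after the data were seen. Replicates of mutant fusions entered the fit and are not described. Some named genes, 1 of the largest falls among them, are not reported here.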

Additional observations from a re-analysis of the deposited data

Results flagged for a closer look

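Within each group, the highest or lowest library of a gene or list level was compared with the rest by the ratio of its gap to the group's range, and 22 of 478 groups of values passed the 95% critical value of Dixon. Chance alone passes about 1 in 20 groups. Values below are log2, with the range of the group's other libraries. In the wild-type rescue, a library stood apart for CAV1 in replicate 3 (16.05, others 16.28 to 16.35), SUFU in replicate 3 (9.67, others 9.9 to 9.96) and YAP1 in replicate 3 (13.38, others 13.08 to 13.16). The same held in the wild-type rescue for ITGB1 in replicate 5 (14.02, others 14.36 to 14.47), IGF2BP1 in replicate 1 (13.75, others 13.23 to 13.33) and AXIN2 in replicate 3 (7.46, others 7.82 to 7.95). It held also for HLA-B in replicate 3 (14.95, others 10.95 to 11.96), the mean level of replication histones in replicate 5 (12.93, others 13.34 to 13.5) and the mean level of semaphorins, ephrins and axon guidance in replicate 3 (9.87, others 9.63 to 9.69).

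In the control, a library stood apart for NFKBIA in replicate 2 (11.38, others 11.57 to 11.61), MCM4 in replicate 5 (14.97, others 14.72 to 14.75) and ID2 in replicate 1 (13.54, others 13.15 to 13.2). The same held in the control for SOCS2 in replicate 1 (5.97, others 6.85 to 6.89), BST2 in replicate 1 (5.48, others 6.5 to 6.71) and ETS1 in replicate 3 (8.92, others 8.3 to 8.4). It held also for RB1 in replicate 1 (12.6, others 12.72 to 12.74), SHROOM4 in replicate 5 (9.64, others 9.8 to 9.83) and LIPI in replicate 1 (12.28, others 11.92 to 11.95). Further control values of this kind were the mean level of DNA replication genes in replicate 5 (12.68, others 12.56 to 12.58), the mean level of oxidative phosphorylation subunits in replicate 5 (11.83, all others 11.95) and the mean level of endothelial markers in replicate 3 (4.8, all others 4.72). The last was the mean level of immune cell markers in replicate 1 (3.92, others 4.12 to 4.14). Wild-type rescue replicate 3 accounted for 6 of these values and replicate 5 for 2.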

How the results depend on the processing

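The labels give the replicate number as a batch, and the fit without the replicate block called 7135 genes in place of 8131 (3834 higher and 3301 lower, 1109 and 314 of them by at least 2-fold). It ended the calls of CCND1, GAS1, GSTM4 and MX1 among the genes named and of no other. A mean of at least 100, which left 12166 genes, gave 781 higher and 176 lower genes past 2-fold in place of 1177 and 346. EWSR1 fell by 0.15 after quantile scaling (adjusted p = 0.0598) and by 0.15 without wild-type rescue replicates 3 and 5 (adjusted p = 0.0601), in place of 0.26. Leaving out each library in turn gave 6909 to 7971 called genes, 3709 to 4276 higher and 3200 to 3695 lower, with 1030 to 1342 higher and 324 to 410 lower by at least 2-fold. FLI1 then lay between -1.19 and -1.11 and EWSR1 between -0.30 and -0.17. Trimmed-mean scaling moved the median difference of all genes to -0.079 in place of 0.032, and it and quantile scaling turned the balance of small differences, as given with the counts.

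Of 158 named genes called, 8 lost the call under at least 1 of up to 18 alternatives, as given beside each or above. Of the 34 named and not called, 9 gained a call under at least 1: NR0B1, FCGRT, LIPI, SOX2 and IGF1R as given, SUFU without control replicate 5 (0.24, adjusted p = 0.0387), CDK4 after trimmed-mean scaling (-0.19, adjusted p = 0.0434), IFI44L without control replicate 1 (1.67, adjusted p = 0.0464) and ITGB1 after quantile scaling (0.15, adjusted p = 0.0481). In 0 of the 192 was a called direction reversed. Of 1692 list counts under alternatives, 1506 stayed within 1.5 times and 186 moved, in 42 of the 94 counts. Of these 42, 23 were counts of 3 or fewer members. The cause was not tested. With the median over members in place of the mean, 20 of 47 list level differences moved by over 1 SD of the rescue libraries. Among them the GGAA repeat list was at 0.22 in place of -0.06, the heat shock list at -0.34 in place of 0.1 and the polycomb list at 0.13 in place of -0.09. Genes under the stricter filter's limit have no value there. Because depth is unknown, differences of low genes have no counting error here.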

Other observations

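Long noncoding RNAs held large differences too, in genes chosen after their values were seen. AC110995.1 stood at 9.91, 10.11, 10.93, 10.25 and 10.91 in wild-type rescue replicates 1 to 5, against 6.34, 6.66, 7.66 and 6.73 in control (3.58 ± 0.19, limma adjusted p = 7.28e-09), with a knockdown mean of 10.20. LINC01192 stood at 7.85, 7.31, 7.43, 6.86 and 7.72 in the wild-type rescue, against 5.19, 4.43, 4.18 and 4.13 in control (2.99 ± 0.32, limma adjusted p = 3.98e-06). The groups did not overlap in either gene. LINC01192 also lay above its knockdown mean of 3.57. In the opposite direction, LINC01198 stood at 2.69, 2.51, 2.33, 2.23 and 2.60 in the wild-type rescue, against 5.59, 4.56, 4.72 and 4.44 in control (-2.37 ± 0.18, limma adjusted p = 1.45e-07), and at 2.18 in the knockdown.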
